A study of Homo sapiens with 9 samples.

Results

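The genes described here are 49 genes of S phase and DNA replication, taken by symbol from a list out of 24462 gene symbols: the factors that load and fire replication origins, the polymerases, the sliding clamp and its loader, the enzymes that supply deoxynucleotides, and the regulators of the step into S phase. They were followed in U-373MG, an established human cell line labelled as glioblastoma and astrocytoma, in 3 groups of 3 libraries. The groups were cells given 200 nM of the peptide NnK-1 for 48 h, cells given 200 nM of the peptide CBRV1-10493 for 48 h, and untreated control cells that served both peptides. The peptides were made synthetically after jellyfish proteins, and the study's title likens them to ShK, a sea anemone toxin known as a blocker of voltage-gated potassium channels. No vehicle or inactive peptide is named for the control cells, every library comes from the same cell line, and no count of cells or of cells in S phase was used here. RNA was sequenced with a QuantSeq kit, whose reads start near the 3′ ends of transcripts, and levels are not compared between genes. Levels are given as CPM, the count of a gene over the total count of its library scaled to a common library size. Fold changes are on the log2 scale and come from the deposited counts with TMM scaling in edgeR.

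Total counts ranged from 11203094 to 13491075 per library, and all 49 genes were found, on 1 entry each, with at least 44 reads in every library. All 49 passed the filter on low counts. Of the astrocyte and glioma markers, GFAP stood between 19.7 and 28.98 CPM over the 9 libraries and VIM between 3670 and 7267 CPM, while AQP4, SLC1A2 and ALDH1L1 were at or near 0. The markers summed to between 0.89 and 3.79 CPM for endothelial cells and to between 1.87 and 5.63 CPM for immune cells, with PTPRC at 1 read in 1 library and 0 in the others and CD3E at 0 in all 9. In the GENCODE annotation 14 of the 49 genes overlap another gene of the files, 8 of them at the 3′ end, and 10 have pseudogenes named after them; no source used here tells how such reads were assigned, so the levels of these genes are uncertain. NnK-1 replicate 2 lay apart from the other libraries on the first principal component of all genes (19.7% of the variance) and CBRV1-10493 replicate 1 on the second (14.7%).

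As background, a cell prepares its origins in G1. The origin recognition complex, CDC6 and CDT1 load rings of the MCM2-7 helicase onto DNA, and CDC45, the GINS complex and MCM10 turn the loaded rings into moving helicases at the start of S phase. DNA polymerase alpha with its primase lays down primers, polymerases epsilon and delta extend them, PCNA clamps the polymerases to DNA, and FEN1 and LIG1 join the fragments of the lagging strand. Many of these genes are activated together at the G1/S transition by E2F transcription factors when cyclin-dependent kinases release them from the retinoblastoma protein, and they are a common readout of proliferation in tumour cells.

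Promoter sequence was not used to choose the genes. Many of them are activated by E2F, as set out above, so E2F words in their promoters are not independent of that choice. RefSeq promoter windows (GRCh38.p14, 250 bases before to 50 after the start of the gene) were at hand for 42 of the 49 genes; MCM4, MCM5, GINS4, POLD3, RPA2, RPA3 and CCNE2 had none. An E2F word, any of TTTCCCGC, TTTCGCGC, TTTGCCGC or TTTGGCGC on either strand, was found in 19 of the 42 windows (45.2%) and in 908 of 27305 windows of all genes (3.33%). CCAAT, on either strand, was found in 24 of the 42 (57.1%) and in 35.7% of all windows. CCAAT can overlap an E2F word by its end base only, and was counted apart. The counts are a description: a word is not a bound site, and a window without it may hold other forms of the site. The windows of all genes were not matched to the 42 for base composition or gene type. Stretches of 60 bases that hold such a word upstream of the start are shown for 6 genes of several roles, to show how these words sit in them. They are MCM7, a helicase subunit (chr7:100101398-100101457, minus strand), MCM6, another helicase subunit (chr2:135876496-135876555, minus strand), the loading factor CDT1 (chr16:88803728-88803787, plus strand), the clamp PCNA (chr20:5126648-5126707, minus strand), TYMS, the synthase of thymidylate (chr18:657588-657647, plus strand) and the transcription factor E2F1 (chr20:33686386-33686445, minus strand). Each reads 5′ to 3′ on the strand of the gene, with the E2F words in capitals.
MCM7: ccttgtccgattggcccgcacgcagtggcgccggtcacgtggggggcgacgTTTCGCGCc
MCM6: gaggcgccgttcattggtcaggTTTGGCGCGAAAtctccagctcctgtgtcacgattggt
CDT1: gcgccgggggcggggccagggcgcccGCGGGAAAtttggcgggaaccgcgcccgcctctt
PCNA: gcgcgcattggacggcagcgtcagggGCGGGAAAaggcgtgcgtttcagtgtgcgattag
TYMS: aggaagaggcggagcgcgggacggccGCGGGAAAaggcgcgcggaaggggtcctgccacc
E2F1: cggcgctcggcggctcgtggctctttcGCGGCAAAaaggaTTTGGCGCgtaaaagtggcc

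In MCM6 the words of the 2 strands overlap in the run TTTGGCGCGAAA, and E2F1 carries a pair of words 5 bases apart. With NnK-1 against control the median log2 fold change was 0.063 for the 19 genes with a word and 0.058 for the 23 without. With CBRV1-10493 against control the medians were 0.031 and -0.059. No test was made of these differences.

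No gene of this set passed the threshold with either peptide. By edgeR's quasi-likelihood test, 0 of 49 genes passed an adjusted p of 0.05 with NnK-1 against control, 0 with CBRV1-10493 against control and 0 with CBRV1-10493 against NnK-1; over all 13676 genes tested the share that passed was 0% in each comparison. DESeq2 and limma-voom also passed 0 of the 49 in each. Together the 49 genes took 3883, 3738 and 3642 CPM in the NnK-1 libraries, 3676, 3535 and 3587 CPM in the CBRV1-10493 libraries, and 3722, 3578 and 3635 CPM in the control libraries, so that the groups overlapped. The means were 3754 ± 121 CPM with NnK-1, 3599 ± 71.2 CPM with CBRV1-10493 and 3645 ± 72.2 CPM in control cells (SD, n = 3 each). In RNA of whole cultures, a smaller share of cells in S phase and less of these RNAs per cell cannot be told apart.

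The size of change that these libraries leave possible was small for most of the genes. The 95% interval of the log2 fold change reached 0.303 to each side in the median gene with NnK-1 (0.181 to 0.740 over the 49) and 0.302 with CBRV1-10493. For 40 of 49 genes with NnK-1, and for 42 of 49 with CBRV1-10493, the whole interval lay within a change of 1.5-fold in either direction, against 52.3% and 55.8% of all genes tested. Over all genes tested the interval with NnK-1 reached up to 4.14 to each side. The shares were not matched for read count, so they do not show that these genes are more stable. Over the set, the genes with an interval that reached past a 2-fold change against control were POLE2 and POLD1 with NnK-1 and PRIM2 with CBRV1-10493; none of them had more than 11.3 CPM in any library. These intervals and the adjusted p-values measure the spread between libraries, which may be technical, since the labels do not say that each library came from its own culture.

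**Figure D1:**
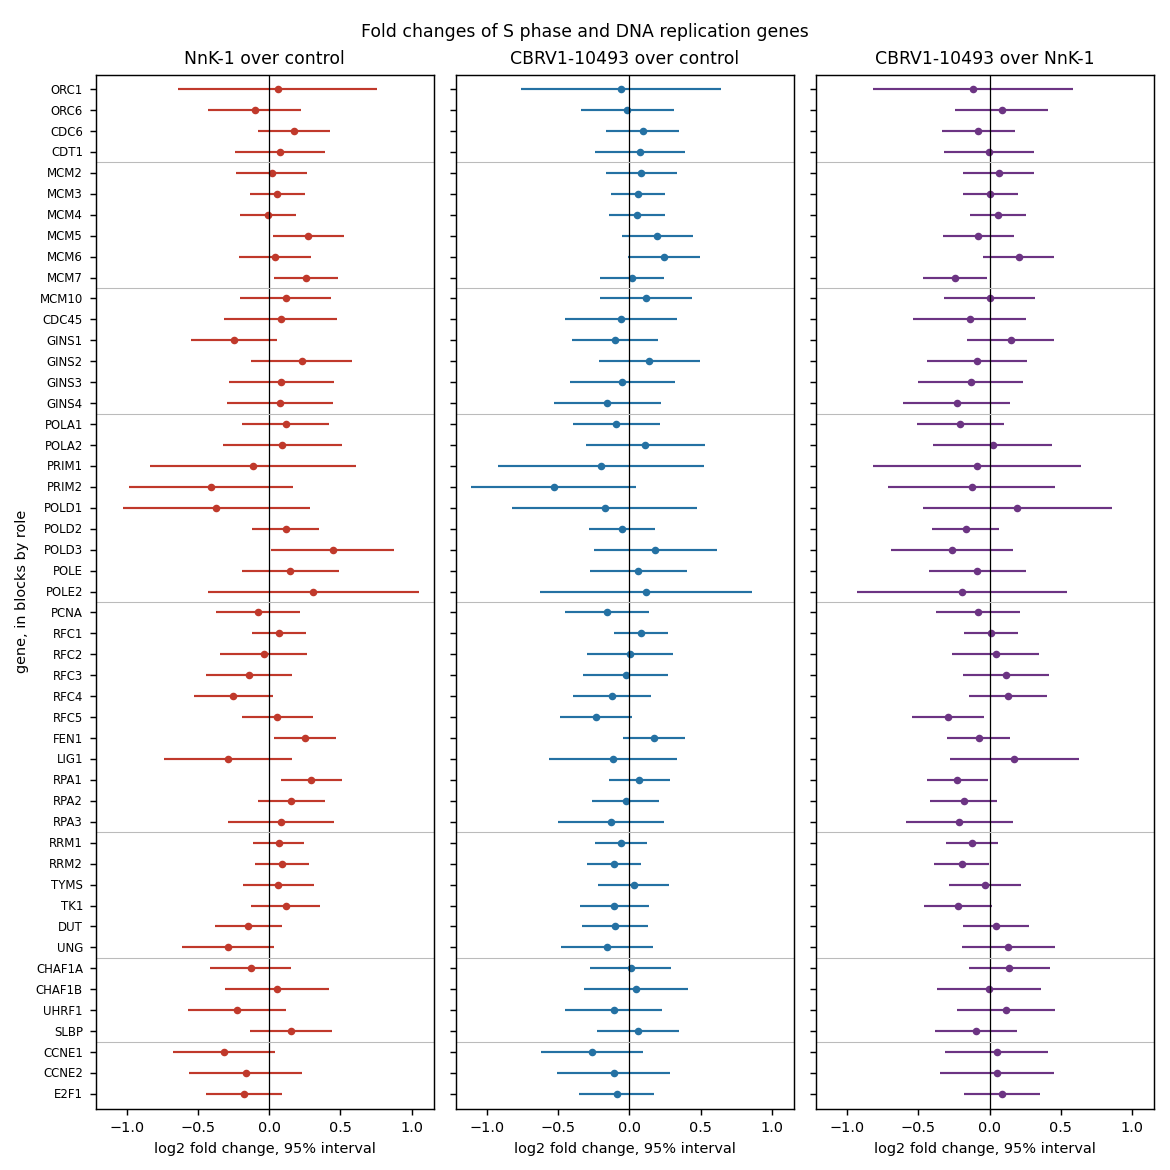
Log2 fold change (points) with 95% interval (lines) of each of the 49 genes, in blocks by role, for NnK-1 over control, CBRV1-10493 over control and CBRV1-10493 over NnK-1; the vertical line marks no difference. Most points lie within 0.3 of the line and most intervals cross it.

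Replicates of 1 group varied from gene to gene. The median ratio of the highest to the lowest library over the 49 genes was 1.25 within NnK-1, 1.23 within CBRV1-10493 and 1.19 within control. NnK-1 replicate 1 was the highest of the 9 libraries for 13 of the 49 genes, and control replicate 1 for 10. The lowest was NnK-1 replicate 2 for 10 genes and CBRV1-10493 replicate 3 for 8. Such counts were not made over all genes. PCNA, the sliding clamp, which has 3 pseudogenes named after it, had 154, 96.0 and 98.9 CPM in the NnK-1 libraries, 108, 97.9 and 126 CPM in the CBRV1-10493 libraries, and 129, 121 and 124 CPM in the control libraries. NnK-1 replicate 1 lay above every control library, and NnK-1 replicates 2 and 3 lay below every one of them. TYMS, which makes thymidylate and overlaps ENOSF1 at its 3′ end, had 368, 234 and 290 CPM with NnK-1, 283, 297 and 298 CPM with CBRV1-10493, and 326, 277 and 265 CPM in control libraries. Its 3 NnK-1 libraries spanned the values of both other groups.

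**Figure D2:**
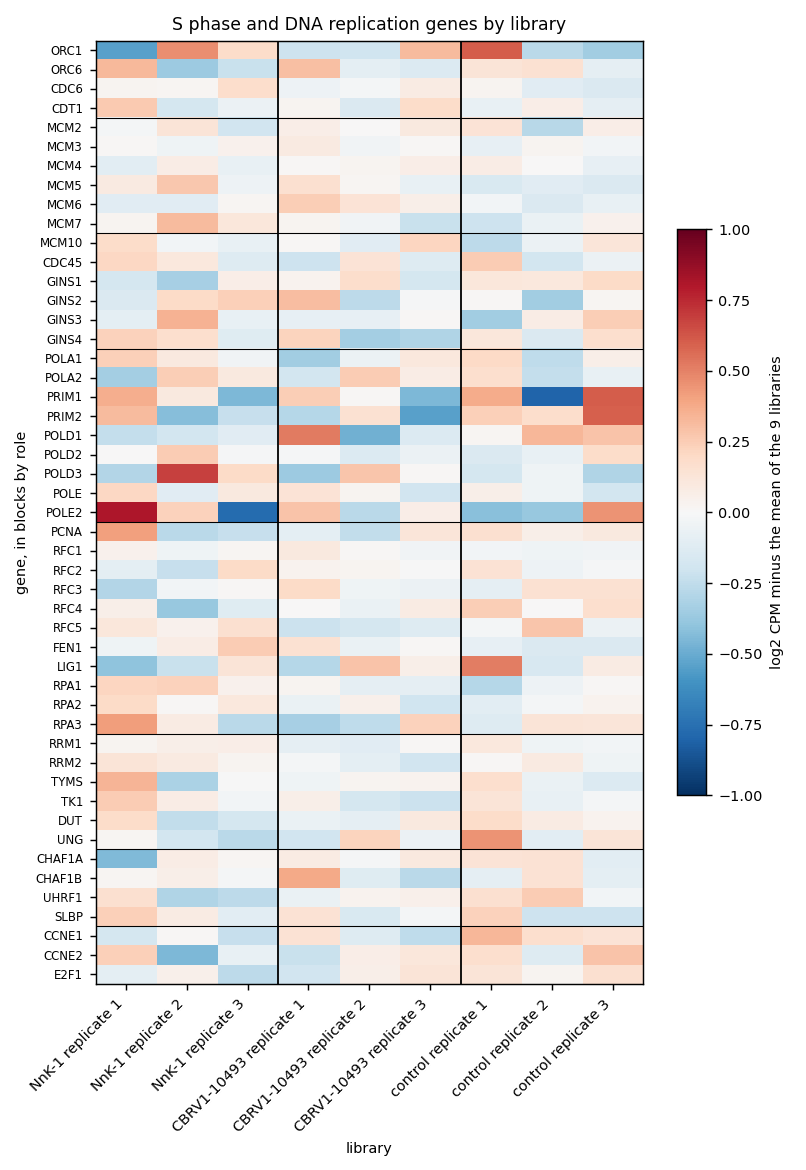
Log2 CPM of each gene minus its mean over the 9 libraries (colour, red above and blue below), with genes down the page in blocks by role and libraries across in the order NnK-1, CBRV1-10493, control. No role group of 4 or more genes is all red or all blue in the 3 libraries of a group. POLE2 runs between 11.1 and 3.71 CPM within the NnK-1 libraries.

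The loading factors gave no called difference. ORC6, a subunit of the origin recognition complex, had 81.8, 50.6 and 55.9 CPM with NnK-1, 80.3, 61.0 and 59.5 CPM with CBRV1-10493, and 71.3, 72.5 and 61.4 CPM in control libraries. CDC6, which recruits the helicase to the origin, stood at 45.3, 44.99 and 50.1 CPM with NnK-1, 43.0, 43.8 and 47.2 CPM with CBRV1-10493, and 45.4, 41.1 and 40.3 CPM in control libraries. The groups overlapped for both genes. CDT1, the partner of CDC6, ran between 25.7 and 34.9 CPM over all 9 libraries, and ORC1, the largest subunit of the complex, between 4.14 and 9.18 CPM, with its highest value in a control library. Summed, the 4 loading genes stood at 146 ± 18.7 CPM with NnK-1, 147 ± 10.9 CPM with CBRV1-10493 and 145 ± 10.3 CPM in control cells.

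The 6 subunits of the MCM2-7 ring held 2 of the 5 genes that were higher with NnK-1 at an unadjusted p under 0.05, a level that 3.76% of all genes tested reached in that direction. MCM5 had 70.4, 79.5 and 63.9 CPM with NnK-1, 74.0, 67.1 and 63.0 CPM with CBRV1-10493, and 59.4, 61.0 and 59.7 CPM in control libraries. Every library of either peptide lay above every control library. The log2 fold change of MCM5 was 0.28 with NnK-1 (95% interval 0.03 to 0.53, adjusted p = 0.649) and 0.20 with CBRV1-10493 (-0.05 to 0.45, adjusted p = 1.00), by edgeR with the same control libraries in both. It was 0.17 with NnK-1 without NnK-1 replicate 2, and 0.12 with CBRV1-10493 without CBRV1-10493 replicate 1. MCM7 had 261, 320 and 279 CPM with NnK-1, 262, 251 and 221 CPM with CBRV1-10493, and 223, 246 and 265 CPM in control libraries, with NnK-1 and control overlapping. Its log2 fold change was 0.26 with NnK-1 (0.03 to 0.48, adjusted p = 0.637) by edgeR, and 0.15 without NnK-1 replicate 2. MCM7 overlaps AP4M1 on the opposite strand.

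MCM6 had 44.4, 44.4 and 48.7 CPM with NnK-1, 56.9, 52.6 and 50.02 CPM with CBRV1-10493, and 47.1, 43.4 and 45.6 CPM in control libraries, so that the CBRV1-10493 libraries lay above all others. The log2 fold change of MCM6 was 0.24 with CBRV1-10493 against control (-0.01 to 0.49, adjusted p = 1.00) by edgeR. For the other subunits the groups overlapped: MCM2 ran between 94.0 and 125 CPM over the 9 libraries, MCM3 between 144 and 162 CPM, and MCM4 between 190 and 216 CPM. Above 0 lay 5 of the 6 fold changes with NnK-1 and 6 of 6 with CBRV1-10493, both set against the same control libraries. Their summed level was 868 ± 55.2 CPM with NnK-1, 849 ± 29.01 CPM with CBRV1-10493 and 817 ± 13.1 CPM in control cells. The lowest NnK-1 sum, 831.5 CPM, lay just above the highest control sum, 831.1 CPM, and the CBRV1-10493 sums overlapped the control sums. These sums were scaled by library total alone. The TMM factors were 1.0111 for NnK-1 replicate 1 and 1.0020 for control replicate 3, the libraries at that gap. TMM scaling would reverse their order, so that NnK-1 and control would overlap.

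**Figure D3:**
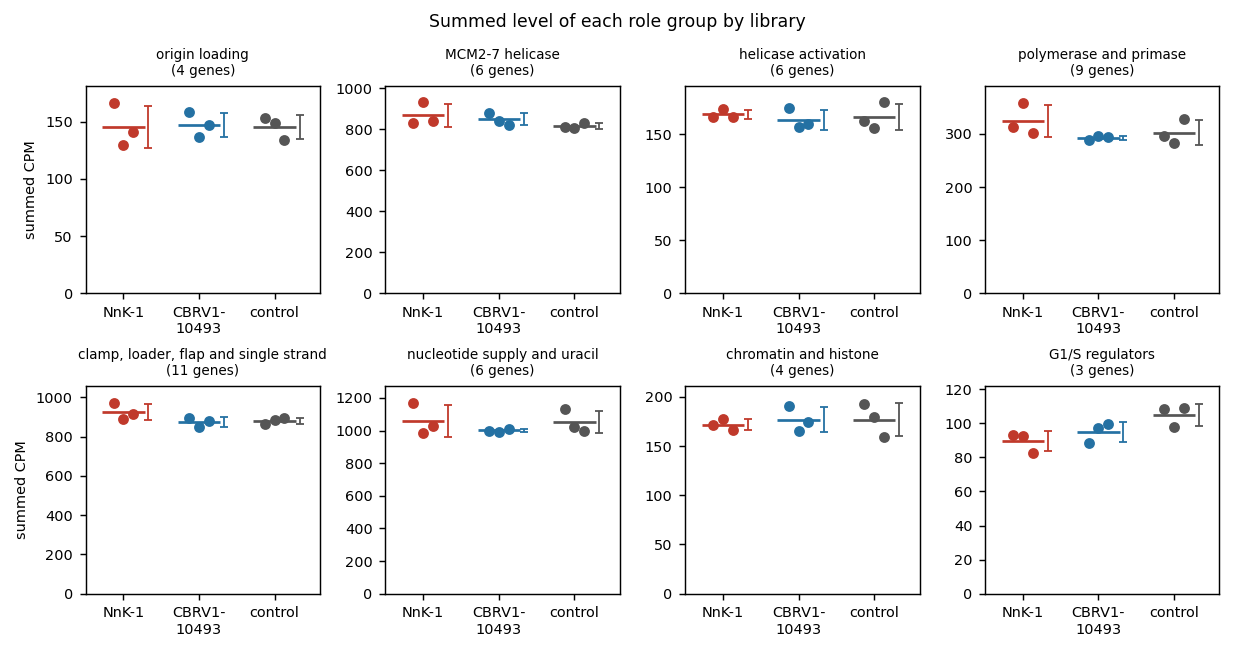
Summed CPM of the genes of each role group in every library (points, y axis from 0), with the mean (line) and SD (bar beside it) of the 3 libraries, for NnK-1, CBRV1-10493 and control. NnK-1 and control overlap in 6 of the 8 panels, all but the MCM2-7 helicase and the G1/S regulators. Sums are scaled by library total, and the narrow gap of the MCM2-7 helicase would close under TMM scaling. The G1/S regulators stand at 89.6 CPM with NnK-1, 94.997 CPM with CBRV1-10493 and 105 CPM in control cells.

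The factors that turn the loaded ring into a moving helicase gave no called difference. GINS1, a subunit of the GINS complex, had 30.3, 27.2 and 35.8 CPM with NnK-1, 35.2, 38.7 and 30.3 CPM with CBRV1-10493, and 37.0, 36.8 and 39.1 CPM in control libraries. All NnK-1 libraries lay below all control libraries, at a log2 fold change of -0.25 (-0.55 to 0.06, adjusted p = 0.728 by edgeR). The remaining subunits did not show that order: GINS2 ran between 27.2 and 43.0 CPM over the 9 libraries, GINS3 between 21.1 and 34.1 CPM and GINS4 between 18.8 and 27.9 CPM. CDC45, which binds GINS and the ring, ran between 14.1 and 19.4 CPM, and MCM10 between 24.1 and 33.6 CPM. In each of these the groups overlapped. GINS2 overlaps GSE1 at its 3′ end.

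Among the polymerase and primase genes 1 gene reached an unadjusted p under 0.05. POLD3, a subunit of polymerase delta, had 26.1, 51.4 and 36.5 CPM with NnK-1, 24.9, 38.8 and 32.3 CPM with CBRV1-10493, and 28.4, 31.05 and 26.02 CPM in control libraries. It was the fifth gene under 0.05 for NnK-1 (log2 fold change 0.45, 0.02 to 0.88, adjusted p = 0.675 by edgeR), a value singled out after it was seen, and its groups overlapped. Without NnK-1 replicate 2, the library with 51.4 CPM, the value was 0.15. With CBRV1-10493 its log2 fold change was 0.18 (-0.25 to 0.62), and it was 0.33 without CBRV1-10493 replicate 1 and 0.02 without CBRV1-10493 replicate 2. PRIM2, the large primase subunit, had 9.24, 5.53 and 6.35 CPM with NnK-1, 6.12, 8.27 and 5.12 CPM with CBRV1-10493, and 8.78, 8.42 and 11.3 CPM in control libraries. The CBRV1-10493 libraries lay below all control libraries, at a log2 fold change of -0.53 (-1.11 to 0.05, adjusted p = 1.00 by edgeR). POLD1, the catalytic subunit of polymerase delta, had 4.54, 4.73 and 4.95 CPM with NnK-1, 7.69, 3.85 and 4.87 CPM with CBRV1-10493, and 5.44, 6.75 and 6.52 CPM in control libraries. The NnK-1 libraries lay below all control libraries and the CBRV1-10493 libraries lay on both sides of them.

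The catalytic subunits of the other two replicative polymerases showed no separation. POLA1 ran between 35.8 and 53.7 CPM over the 9 libraries and POLE between 19.0 and 25.0 CPM. The accessory subunits overlapped between each peptide and control as well, with POLD2 between 146 and 193 CPM, POLA2 between 13.7 and 20.6 CPM and POLE2 between 3.71 and 11.1 CPM. PRIM1, the catalytic primase subunit, ran between 3.49 and 9.27 CPM, with both ends in the control group; it overlaps NACA at its 3′ end. In this group 6 of 9 genes lay above 0 with NnK-1 and 4 of 9 with CBRV1-10493.

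The proteins that work behind the helicase held the gene with the smallest p of the set. RPA1, the large subunit of the protein that coats single-stranded DNA, had 224, 226 and 198 CPM with NnK-1, 196, 181 and 181 CPM with CBRV1-10493, and 158, 185 and 194 CPM in control libraries. Every NnK-1 library lay above every control library, at a log2 fold change of 0.29 (0.08 to 0.51, adjusted p = 0.577 by edgeR). Its partners did not separate: RPA2 ran between 56.9 and 74.4 CPM over the 9 libraries and RPA3 between 25.6 and 43.2 CPM. RPA1 overlaps SMYD4 and RPA3 overlaps UMAD1 on the opposite strand.

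FEN1, the nuclease that trims the flaps of lagging strand fragments, had 133, 145 and 164 CPM with NnK-1, 153, 131 and 139 CPM with CBRV1-10493, and 130, 124 and 125 CPM in control libraries. All libraries of both peptides lay above all control libraries. The log2 fold change of FEN1 was 0.25 with NnK-1 (0.03 to 0.47, adjusted p = 0.637) and 0.17 with CBRV1-10493 (-0.05 to 0.39, adjusted p = 1.00), by edgeR with shared controls. Without CBRV1-10493 replicate 1, the value with CBRV1-10493 was 0.11. In the annotation FEN1 overlaps FADS2 at its 3′ end on the same strand and TMEM258 on the opposite strand. It also has 1 pseudogene named after it, so the values of FEN1 are uncertain. LIG1, the ligase that acts after FEN1, ran between 12.5 and 23.5 CPM and overlapped between groups.

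The subunits of the clamp loader did not share a direction. RFC5, a small subunit, had 61.9, 59.0 and 64.1 CPM with NnK-1, 49.5, 50.6 and 52.2 CPM with CBRV1-10493, and 56.5, 69.6 and 55.1 CPM in control libraries, and the CBRV1-10493 libraries were the lowest of all. Its log2 fold change was -0.23 with CBRV1-10493 against control (-0.48 to 0.02, adjusted p = 1.00 by edgeR), and -0.12 without control replicate 2. RFC4 had 46.5, 34.3 and 41.0 CPM with NnK-1, 44.7, 42.4 and 47.0 CPM with CBRV1-10493, and 52.8, 44.6 and 49.96 CPM in control libraries, at a log2 fold change of -0.25 with NnK-1 (-0.53 to 0.02, adjusted p = 0.698 by edgeR). Without NnK-1 replicate 2 the value of RFC4 was -0.16. RFC5 overlaps WSB2 and RFC4 overlaps EIF4A2 at their 3′ ends, both on the opposite strand, so these values are uncertain. RFC1, the large subunit, ran between 154 and 170.5 CPM over the 9 libraries, RFC2 between 26.1 and 35.0 CPM and RFC3 between 30.6 and 42.8 CPM. With NnK-1 the 5 loader subunits had 2 values above 0 and 3 below.

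The 6 genes of nucleotide supply and uracil removal gave no called difference. RRM1, the large subunit of ribonucleotide reductase, had 294, 301 and 302 CPM with NnK-1, 271, 267 and 291 CPM with CBRV1-10493, and 310, 279 and 283 CPM in control libraries. RRM2, its small subunit, which is made in S phase, had 231, 224 and 215 CPM with NnK-1, 208, 197 and 185 CPM with CBRV1-10493, and 213, 225 and 205 CPM in control libraries. Neither peptide separated from control in either gene. With CBRV1-10493 against control RRM2 stood at a log2 fold change of -0.11 (-0.30 to 0.08), and at -0.06 without CBRV1-10493 replicate 3. TK1, the thymidine kinase of cycling cells, ran between 74.6 and 103 CPM, and DUT, which removes dUTP and has 8 pseudogenes named after it in the annotation, between 98.7 and 133 CPM. UNG, which cuts uracil out of DNA, had 39.8, 34.5 and 32.6 CPM with NnK-1, 34.5, 45.9 and 37.7 CPM with CBRV1-10493, and 53.6, 36.5 and 42.9 CPM in control libraries. Its log2 fold change with NnK-1 was -0.29 (-0.61 to 0.03, adjusted p = 0.708 by edgeR), with overlapping groups, and -0.14 without control replicate 1.

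The chromatin genes overlapped throughout between each peptide and control. CHAF1A and CHAF1B, subunits of the assembly factor that places histones behind the fork, ran between 47.6 and 71.5 CPM and between 20.4 and 32.0 CPM. The lowest CHAF1A value was in NnK-1 replicate 1, and CHAF1A overlaps UBXN6 at its 3′ end. UHRF1, which recruits the maintenance DNA methyltransferase, ran between 18.3 and 26.9 CPM, and SLBP, which binds the stem-loop of replicative histone messages, between 53.6 and 73.1 CPM.

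The 3 regulators of the step into S phase all had fold changes below 0 with either peptide, and none passed the test. Both peptides were set against the same control libraries, so the shared direction is not seen independently. CCNE1, cyclin E1, had 17.7, 20.2 and 17.1 CPM with NnK-1, 22.2, 18.3 and 16.8 CPM with CBRV1-10493, and 25.2, 22.5 and 22.0 CPM in control libraries. The NnK-1 libraries lay below all control libraries, and 1 CBRV1-10493 library lay above the lowest control library. The log2 fold change of CCNE1 was -0.32 with NnK-1 (-0.67 to 0.04, adjusted p = 0.715) and -0.26 with CBRV1-10493 (-0.62 to 0.09, adjusted p = 1.00), by edgeR. CCNE2, which overlaps INTS8 at its 3′ end, ran between 14.4 and 23.9 CPM over the 9 libraries. E2F1 had 52.4, 58.1 and 46.9 CPM with NnK-1, 49.1, 58.5 and 61.2 CPM with CBRV1-10493, and 61.3, 57.2 and 62.9 CPM in control libraries, and its groups overlapped. Summed, the 3 regulators had 93.3, 92.7 and 82.7 CPM with NnK-1, 88.2, 97.5 and 99.4 CPM with CBRV1-10493, and 109, 97.7 and 109 CPM in control libraries. The NnK-1 sums lay below all control sums, and the CBRV1-10493 sums overlapped them.

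**Figure D4:**
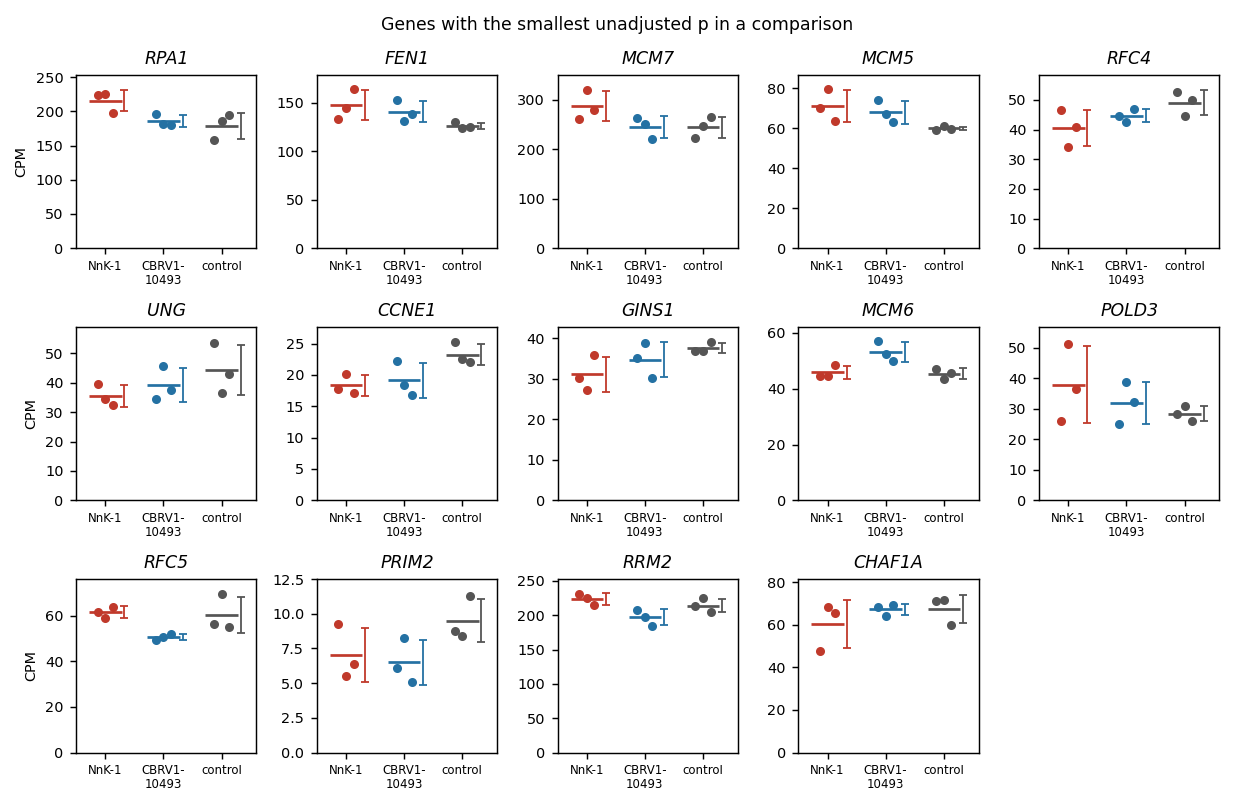
CPM in every library (points, y axis from 0), with mean (line) and SD (bar beside it) of 3 libraries, for the 14 genes with the 4 smallest unadjusted p in each direction of a comparison, in the order NnK-1, CBRV1-10493, control. MCM5 and FEN1 lie above control with both peptides, MCM6 is highest and RFC5 lowest with CBRV1-10493, and RPA1 is highest with NnK-1.

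Set against all genes, the counts for NnK-1 were as follows. At an unadjusted p under 0.05, 5 of 49 genes were higher with NnK-1 (RPA1, FEN1, MCM7, MCM5 and POLD3; 10.2%), where 3.76% of all genes tested were, and 0 were lower, where 3.57% of all genes were. The count depended on single libraries: in both directions together it was 2 without control replicate 1, 2 without control replicate 3 and 3 without NnK-1 replicate 2. Without NnK-1 replicate 1 it was 12, of which 5 were higher and 7 lower, and the smallest adjusted p was 0.168 by edgeR. All NnK-1 libraries lay above all control libraries for 3 genes (6.12%), where 5.08% of all genes did, and below them for 3 (6.12%), where 7.92% did. Above 0 lay 31 of 49 fold changes (63.3%), against 50.6% of all genes, and the median was 0.063, against 0.0033 over all genes. Without control replicate 2 these were 25 of 49 and a median of 0.0066, against 0.0055 over all genes; without NnK-1 replicate 2 the median was 0.037, and without NnK-1 replicate 1 it was 0.040.

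For CBRV1-10493 no gene of the set reached an unadjusted p under 0.05. At that level 0 of 49 genes were higher, where 1.34% of all genes tested were, and 0 were lower, where 1.55% were. The count was 1 without control replicate 1 or 3 or without any one of the 3 CBRV1-10493 libraries. The CBRV1-10493 libraries lay above all control libraries for 3 genes (MCM5, MCM6 and FEN1; 6.12%), where 3.91% of all genes did, and below them for 2 (PRIM2 and RFC5; 4.08%), where 4.96% did. The median log2 fold change was -0.027, against 0.0027 over all genes, and 22 of 49 lay above 0. The median was 0.00078 without CBRV1-10493 replicate 2, with 25 of 49 above 0. It was -0.0084 without CBRV1-10493 replicate 3, -0.0049 without control replicate 1 and -0.013 without control replicate 3.

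CBRV1-10493 was also set directly against NnK-1, since dose and exposure were equal, and 0 of 49 genes were called. At an unadjusted p under 0.05, 4 of 49 genes (8.16%) stood lower in CBRV1-10493, where 2.35% of all genes tested did, and 0 stood higher, where 1.96% did. The log2 fold change, with its interval, was -0.29 for RFC5 (-0.54 to -0.04), -0.24 for MCM7 (-0.47 to -0.02), -0.23 for RPA1 (-0.44 to -0.01) and -0.20 for RRM2 (-0.39 to -0.01), each at an adjusted p of 0.994 by edgeR. The count was 0 without CBRV1-10493 replicate 2, 1 without NnK-1 replicate 2 and 2 without CBRV1-10493 replicate 3. All CBRV1-10493 libraries lay below all NnK-1 libraries for 5 genes (RFC5, RPA1, RRM1, RRM2 and POLD2; 10.2%), where 4.17% of all genes did, and above them for 1 gene, MCM6 (2.04%), where 4.71% did. These orders were taken in CPM by library total. For POLD2 the gap was narrow, 159.63 CPM in CBRV1-10493 replicate 1 against 159.66 CPM in NnK-1 replicate 3. TMM factors of 0.9914 for CBRV1-10493 replicate 1 and 1.0111 for NnK-1 replicate 1 would make its groups overlap. MCM6 had a log2 fold change of 0.20 (-0.05 to 0.45) in this comparison. On the same side, and with overlapping groups, stood GINS1 at 0.15 (-0.16 to 0.45), CHAF1A at 0.14 (-0.15 to 0.43) and RFC4 at 0.13 (-0.15 to 0.41) (each a log2 fold change). Leaving out 1 library moved these 3 values to between 0.06 and 0.26 for GINS1, between -0.02 and 0.25 for CHAF1A, which was below 0 without NnK-1 replicate 1, and between 0.04 and 0.22 for RFC4. MCM7 stood at -0.14 without NnK-1 replicate 2. The median of the 49 was -0.078, against 0.0011 over all genes, and stood at -0.0074 without NnK-1 replicate 1, -0.033 without NnK-1 replicate 2, -0.045 without NnK-1 replicate 3, -0.021 without CBRV1-10493 replicate 2 and -0.025 without CBRV1-10493 replicate 3. For 41 of 49 genes the interval of the difference between the peptides lay within 1.5-fold; a p that misses the threshold does not show that the peptides act alike.

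Other genes of replication, 40 in number and all tested, gave 0 called genes in each comparison. At an unadjusted p under 0.05, 2 were higher with NnK-1 (5%, against 3.76% of all genes tested) and 3 lower (7.5%, against 3.57%). With CBRV1-10493, 0 were higher (1.34% of all genes) and 2 lower (5%, against 1.55%), with medians for NnK-1 and CBRV1-10493 of 0.0065 and -0.050. CLSPN, which carries the signal of stalled forks to the checkpoint kinase, stood at a log2 fold change of -0.31 with NnK-1 (-0.58 to -0.05, adjusted p = 0.620) and of -0.32 with CBRV1-10493 (-0.58 to -0.05, adjusted p = 1.00) by edgeR, against the same control libraries. ASF1A, a histone chaperone, stood at -0.37 with NnK-1, and POLE4, a small subunit of polymerase epsilon, at 0.31. SAMHD1, which breaks down deoxynucleotides, stood at -0.84 with CBRV1-10493 (-1.52 to -0.15). Of the 12 genes of the E2F and retinoblastoma families, 0 reached an unadjusted p of 0.05 with either peptide.

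Of 10 genes of G1 cyclins, their kinases and inhibitors, 8 were tested. CDK6, a kinase that acts on the retinoblastoma protein, had the smallest p of these under NnK-1 treatment (a log2 fold change of -0.29, between -0.50 and -0.09, adjusted p = 0.577 by edgeR), and the inhibitor CDKN1B stood at 0.28 with NnK-1 and 0.32 with CBRV1-10493, both with intervals that cross 0. The 20 mitosis genes summed to 4540 ± 155 CPM with NnK-1, 4299 ± 95.3 CPM with CBRV1-10493 and 4523 ± 45.4 CPM in control cells. For CBRV1-10493 all 3 libraries (4199, 4309 and 4389 CPM) lay below all 3 control libraries (4496, 4498 and 4575 CPM) in the mitosis sum, whereas in the summed level of the 49 S phase genes these groups overlapped. TOP2A alone took 1790 CPM of the sum with CBRV1-10493 and 1842 CPM in control cells. By gene, 17 of 20 lay below 0 with CBRV1-10493 and 3 above. By edgeR 2 were lower at an unadjusted p under 0.05 (10%, against 1.55% of all genes tested), 0 higher and 0 called. Without overlap 5 were lower (25%, against 4.96%) and 0 higher. Whether the difference in the mitosis sum bears on the S phase genes was not tested.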

How the data were processed

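The authors deposited 1 file per library with raw counts per gene symbol, without normalization. Bowtie2, bedtools and the build hg19 are named per the submitters' processing notes, and per the design text the authors compared groups with edgeR and TMM. Versions, annotation, strand and rules for overlapping genes are not given in the sources used here.

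Entries of 1 symbol were summed (25737 entries, 24462 symbols). Depth ran from 11203094 to 13491075 counts per library. In R 4.3.3, all 9 libraries were fitted in 1 model with edgeR 4.0.16: filterByExpr (13676 genes kept), TMM, glmQLFit and glmQLFTest, with Benjamini-Hochberg adjustment over all genes kept and a threshold of 0.05. For each gene all 9 libraries share 1 estimate of the spread, and p-values printed as adjusted come from that fit. The fit was also run on simulated counts. The changes put into them were larger than any fold change printed for the 49 genes, so that run does not bear on changes of their size. Fold changes were printed for the 4 genes per direction and comparison with the smallest p, for POLD3 with NnK-1 outside that rule, for up to 3 genes of each other list, and levels for all 49. The members and lists were chosen with earlier results of these data known. DESeq2 1.42.0, limma 3.58.1 (voom), other scalings and filters, a replicate block and leaving out libraries were tried as alternatives. Promoters came from RefSeq, and overlaps and pseudogenes from GENCODE, by name only.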

Additional observations from a re-analysis of the deposited data

How the results depend on the processing

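All 49 genes stayed uncalled in the 3 comparisons under each of the 19 alternatives. Of 475 values of the 25 fold changes printed for the 49 genes, 474 kept their direction; CHAF1A, CBRV1-10493 against NnK-1, was -0.0184 without NnK-1 replicate 1 and 0.2503 without NnK-1 replicate 2, the ends of its range. Leaving out 1 library, the number of genes at an unadjusted p under 0.05 ran from 2 to 12 for NnK-1 against control, from 0 to 1 for CBRV1-10493 against control and from 0 to 5 for CBRV1-10493 against NnK-1. The last was 2 with upper-quartile factors. Without both NnK-1 replicate 2 and CBRV1-10493 replicate 1, an alternative chosen after seeing the data, it was 2, and for CBRV1-10493 against control it was 1. The median fold change of CBRV1-10493 against NnK-1 ran from -0.0778 to -0.0074 with 1 library left out. Deviations from the group mean had correlations from -0.057 to 0.132 between same-numbered libraries, and from -0.093 to 0.097 between libraries of different numbers. These values cannot show whether same-numbered libraries shared a culture or a day, and the labels do not say. With the replicate number as a block, 0 of the 49 genes were called by edgeR. At an unadjusted p under 0.05 there were then 5, 0 and 4 genes in the 3 comparisons. Without the filter on low counts, 74, 6 and 1 genes were called over all genes, and DESeq2 called 3, 0 and 0. At this depth and with 3 libraries per group, small changes can be missed. The 95% intervals are not a limit of detection, since they hold for single genes without adjustment. RPA1 with NnK-1, at a log2 fold change of 0.29 (0.08 to 0.51), was not called. The causes of the shifts between alternatives were not tested.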
